A study of Mus musculus with 8 samples.

Results

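Cyp2a4, Cyp2a5, Cyp2a12, Cyp2a22, Cyp2b9, Cyp2b10 and Cyp2b13 encode cytochromes P450 of the mouse Cyp2a and Cyp2b subfamilies. They are 7 of the 22481 genes measured in liver, and were chosen by name from a comparison of obese db/db mice with lean mice in which several of them stood out. The difference between db/db and lean samples is therefore given as a description, with no test. The study, on nonalcoholic fatty liver disease and the deubiquitylating enzyme RPN11, sequenced ribosomal-RNA-depleted, stranded total liver RNA from 4 db/db and 4 lean samples, all male. The db/db mouse carries a mutation of the leptin receptor gene and becomes obese and diabetic. The lean samples have the strain label C57BL/6, and the other group is labelled db/db with no background strain, so obesity and strain background cannot be told apart. The sources used here give no ages. The labels do not name the animal behind each sample, so each p-value reflects only the spread among these samples, possibly technical in part.

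Cytochromes P450 are haem enzymes of the endoplasmic reticulum that insert an oxygen atom into drugs, steroids, fatty acids and bile acids, with electrons passed on by the reductase Por. Cyp2b10 is the classic target of the constitutive androstane receptor CAR (Nr1i3), which mediates the response to phenobarbital. Cyp2b9, Cyp2b13 and Cyp2a4 are known in mouse as female-biased liver genes. In males their levels are held down by the pulsed pattern of pituitary growth hormone, which acts through the factor STAT5B. Cyp2a5 is the coumarin and nicotine hydroxylase of mouse liver, Cyp2a4 hydroxylates testosterone, and Cyp2a12 hydroxylates bile acids.

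All 7 genes lie together on chromosome 7 (mouse build mm10). In order they are Cyp2b10 (ENSMUSG00000030483, 25897620 to 25926624, plus strand), Cyp2b13 (ENSMUSG00000040583, 26061495 to 26096196, plus), Cyp2b9 (ENSMUSG00000040660, 26173411 to 26210661, plus) and Cyp2a4 (ENSMUSG00000074254, 26307190 to 26315088, plus). Further along are Cyp2a5 (ENSMUSG00000005547, 26835305 to 26843548, plus), Cyp2a22 (ENSMUSG00000091867, 26931631 to 26939386, minus) and Cyp2a12 (ENSMUSG00000060407, 27029090 to 27036807, plus). None of the 7 shares or overlaps its locus with another row of the deposited values. Of the 8 other genes listed between Cyp2b10 and Cyp2a12, 7 were at 0 in every sample, among them Cyp2b19 and Cyp2b23. The eighth, Cyp2g1, was low in all samples.

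The genes form 3 close pairs and 1 single gene. Cyp2a4 and Cyp2a5 are 98.45% identical over 1485 coding bases (23 differences), Cyp2a12 and Cyp2a22 96.96% over 1479 (45 differences), and Cyp2b9 and Cyp2b13 92.68% over 1476 (108 differences), in the GENCODE M21 transcripts. The sequences just upstream of the start are shown for the pairs in which they are nearly the same, 1 with similar levels in most samples (Cyp2b9 and Cyp2b13) and 1 with levels far apart (Cyp2a4 and Cyp2a5). They cover bases -250 to -51 from the RefSeq start (build GRCm38.p6), written 5' to 3', and capitals mark bases that differ from the other gene of the pair or have no partner in it.
Cyp2a4 (chr7:26306942-26307141, plus strand): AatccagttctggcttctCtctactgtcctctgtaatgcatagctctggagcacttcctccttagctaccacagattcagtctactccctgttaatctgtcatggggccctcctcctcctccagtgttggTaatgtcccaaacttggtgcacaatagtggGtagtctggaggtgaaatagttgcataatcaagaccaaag
Cyp2a5 (chr7:26835089-26835288, plus strand): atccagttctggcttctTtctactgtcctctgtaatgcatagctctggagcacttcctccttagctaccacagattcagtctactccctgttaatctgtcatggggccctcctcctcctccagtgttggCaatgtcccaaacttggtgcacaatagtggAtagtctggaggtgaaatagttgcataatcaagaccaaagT
Cyp2b9 (chr7:26173159-26173358, plus strand): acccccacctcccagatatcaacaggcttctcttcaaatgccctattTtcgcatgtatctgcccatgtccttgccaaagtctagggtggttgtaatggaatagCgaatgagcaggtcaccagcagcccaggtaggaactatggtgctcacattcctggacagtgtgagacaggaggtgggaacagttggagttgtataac
Cyp2b13 (chr7:26061245-26061444, plus strand): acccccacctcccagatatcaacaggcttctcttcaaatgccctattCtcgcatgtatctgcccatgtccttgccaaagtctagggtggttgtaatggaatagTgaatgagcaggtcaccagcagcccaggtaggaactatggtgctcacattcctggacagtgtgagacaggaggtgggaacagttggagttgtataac
The Cyp2b9 and Cyp2b13 windows differ at 2 of 200 bases. Those of Cyp2a4 and Cyp2a5 differ at 3 aligned bases and are offset by 1. The same window is 80.57% identical between Cyp2a12 and Cyp2a22, and 70.0% between Cyp2b9 and Cyp2b10.

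The closeness of the pairs also bears on how reads can be assigned. Coding bases 550 to 669 of Cyp2a4 and Cyp2a5 hold 6 of the 23 differences, in capitals, and the stretch between them is shared.
Cyp2a4: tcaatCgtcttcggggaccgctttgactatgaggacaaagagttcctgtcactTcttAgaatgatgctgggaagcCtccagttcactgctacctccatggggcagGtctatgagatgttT
Cyp2a5: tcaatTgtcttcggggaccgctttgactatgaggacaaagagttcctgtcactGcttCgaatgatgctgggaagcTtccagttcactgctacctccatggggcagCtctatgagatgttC
Of all 50-base windows of the Cyp2a4 transcript, 38.0% also occur exactly in another annotated transcript, against 40.8% for Cyp2a5, 27.5% for Cyp2a12, 25.7% for Cyp2a22, 27.3% for Cyp2b13, 11.2% for Cyp2b9 and 10.2% for Cyp2b10. Of 100-base windows fewer were shared. The shares were 11.17% for Cyp2a4, 14.37% for Cyp2a5, 6.83% for Cyp2a12, 6.36% for Cyp2a22, 9.29% for Cyp2b13, 1.18% for Cyp2b9 and 0.0% for Cyp2b10. Read length was not used in this comparison. Reads within shared windows can be split between the genes only by estimation, so the balance within a pair is uncertain. The pairs are therefore also given as sums. Over the 50-base windows, all of the sharing of Cyp2a12 and Cyp2a22 was with the partner, and for Cyp2a4 (36.06%) and Cyp2b9 (10.84%) nearly all. Cyp2a5 shared 31.01% with Cyp2a4, less than its total. Cyp2b13 shared most with Gm45225, a gene outside the pairs, at 13.8%. Cyp2b10 shared most with Cyp2b13, at 8.23%. The sums do not settle reads shared outside a pair.

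Before the results, the samples as a whole are described. The 8 samples held 12174845 to 16171702 estimated fragments in protein-coding genes, and 13636 to 14053 genes with at least 1. The first principal component, with 63.4% of the variance, split db/db from lean. On the second, with 10.7%, db/db 1 scored 29.6 and the other db/db samples at most -4.59, so results are also given without that sample. Levels are in FPKM (fragments normalized for transcript length and library size) and are compared between genes on that scale. For Cyp2a5 the comparison depended on the measure, as described below. Summed FPKM of 10 hepatocyte markers ranged over 17398 to 19812 in db/db against 32123 to 41596 in lean, with 0 called higher and 2 called lower. Most of that gap was Apoa1, which was picked out after its values were seen, at 981.7 ± 273.5 in db/db and 15006 ± 2440 FPKM in lean (SD, n = 4 each). Summed levels in db/db and lean were 38.1 to 55.9 and 33.3 to 55.5 for cholangiocytes (1 of 4 tested genes lower), and 118.3 to 168.7 and 166.4 to 259.6 for Kupffer cells (3 of 9 lower). They were 53.0 to 60.7 and 65.6 to 77.7 for endothelium (1 of 8 lower), and 93.8 to 120.1 and 95.8 to 111.3 for stellate cells (2 of 8 lower). For leukocytes they were 2.97 to 12.3 and 9.47 to 67.1 (0 of 4 called), and for adipocytes 134.5 to 140.9 and 72.4 to 126.1 (1 of 3 higher). Nearly all of the adipocyte sum was Adipor2, a receptor gene that liver also expresses, at 131.2 ± 5.20 and 101.5 ± 24.3 FPKM. The called gene was Retn, the defining hormone gene Lep was at 0 in all samples, and Adipoq and Plin1 did not pass the filter. These members were named after their values were seen. Over all tested genes, 15.5% were called higher and 10.9% lower by limma (adjusted p under 0.05). The part of these markers in the results was not tested. In whole liver, fewer cells of a type and less RNA per cell cannot be told apart.

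Among the 7 genes, 5 were higher in every db/db sample than in any lean sample, 0 were lower in every one, and the groups overlapped for Cyp2a4 and Cyp2a5. Of all 10943 genes tested, FPKM did not overlap between the groups for 28.4%, with 16.9% higher and 11.6% lower in db/db. The 4 genes Cyp2a22, Cyp2b9, Cyp2b10 and Cyp2b13 were at least 10-fold higher, against 0.758% of all tested genes. Since the same contrast chose the genes, nothing is read from these counts. The median log2 fold change of the 7 was 3.29, beside 0.04 over all tested genes. All 7 passed the filter on low values (FPKM of at least 0.5 in at least 4 samples), but Cyp2a22, Cyp2b9 and Cyp2b13 did so only through the db/db samples.

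**Figure D1:**
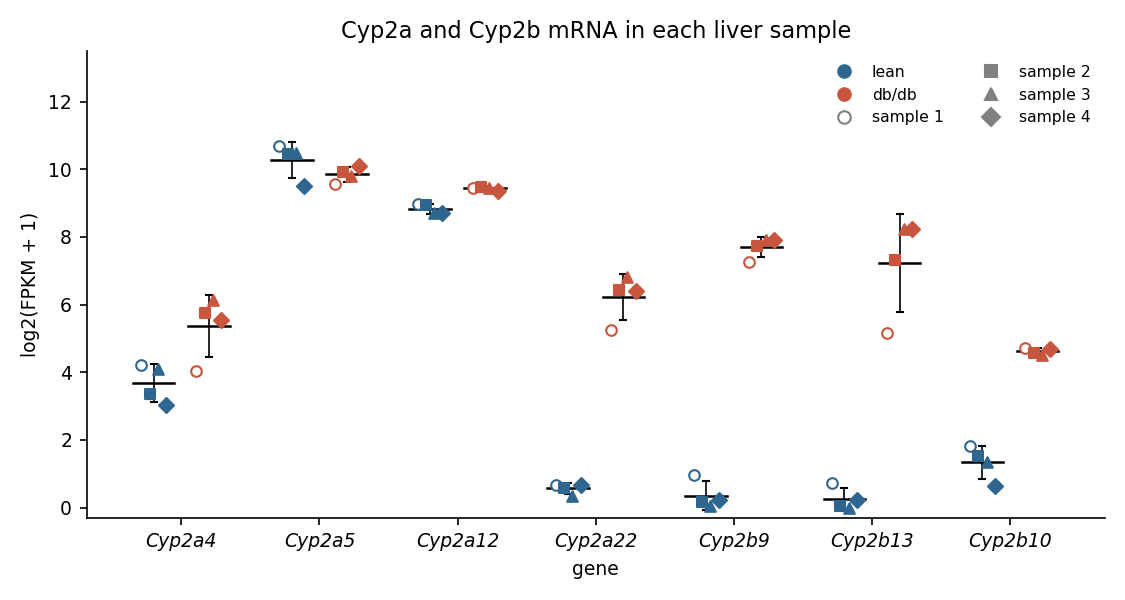
Level of each gene in each sample as log2(FPKM + 1), lean in blue and db/db in red, with a symbol per sample number; bars show the mean and SD of 4 samples. Cyp2a22, Cyp2b9 and Cyp2b13 lie near 0 in all lean samples and far above in all db/db samples, while Cyp2a5 and Cyp2a12 are high in both groups.

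Cyp2b9, a female-biased steroid hydroxylase gene, was at 152.5, 213.0, 238.9 and 238.6 FPKM in db/db samples 1 to 4. In lean samples 1 to 4 it was at 0.965, 0.115, 0.0357 and 0.182 FPKM. It was thus among the more abundant transcripts in every db/db sample (rank 407 of all genes by mean) and barely present in lean liver (rank 11418). The ratio of the means, 210.8 ± 40.7 to 0.324 ± 0.431 FPKM (SD, n = 4 each), was 649.6. The lean value rests on 40 estimated fragments in all, 31 of them in lean 1, so the ratio has a 95% counting interval of 477.1 to 909.3, which covers counting error of the lean fragments only. Without lean 1 the ratio was 1901, outside that interval. The log2 fold change was 7.35 (SE 0.21). It is on log2(FPKM + 1), where the added 1 exceeds every lean value, so the SE holds little of the lean spread. With a pseudocount of 0.1 the log2 fold change was 9.41, and with voom on estimated fragments 10.03. The added 1 also exceeds every lean value of Cyp2b13 and Cyp2a22.

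Its partner Cyp2b13 was at 34.4, 157.3, 297.2 and 298.8 FPKM in db/db samples 1 to 4. In lean samples 1, 2 and 4 it was at 0.654, 0.0383 and 0.182, and in lean 3 it was listed at 0. Every db/db sample was again far above every lean sample, but db/db 1 was much lower than the other 3. The ratio of the means was 901.2 (95% counting interval 619.4 to 1368, from 27 lean fragments) with all samples and 1149 without db/db 1. Of those fragments 21 were in lean 1, and without that sample the ratio was 2682. The log2 fold change was 6.97 (SE 0.57). Cyp2b9 was 4.43 times as abundant as Cyp2b13 in db/db 1 and 0.798 times in the db/db sample with the lowest ratio, so the pair did not keep a fixed balance. Summed over the pair, the 4 db/db samples held 187.0, 370.3, 536.1 and 537.4 FPKM. In lean 1 the sum was 1.62 FPKM, and in the other lean samples at most 0.364.

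Cyp2b10, the target of CAR, was at 25.4, 22.8, 21.7 and 24.8 FPKM in db/db samples 1 to 4. It was at 2.56, 1.87, 1.54 and 0.572 in lean samples 1 to 4. The db/db samples lay close together, at 23.7 ± 1.73 FPKM, and the lean samples varied more in proportion, at 1.63 ± 0.825 (SD, n = 4 each). The ratio was 14.5 (95% counting interval 12.6 to 16.8, from 186 lean fragments). The log2 fold change was 3.29 (SE 0.21). The interval covers counting error of the lean fragments only. Without lean 1 the ratio was 17.9 and without lean 4 it was 11.9, each outside the interval. By mean FPKM, Cyp2b10 was the most abundant of the 3 Cyp2b genes in lean liver and the least abundant in db/db liver. Mean Cyp2b9 was 8.90 times mean Cyp2b10 in db/db and 0.199 times in lean.

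Cyp2a22 is the near-copy of Cyp2a12 on the opposite strand. Its levels were 37.3, 86.2, 111.7 and 83.9 FPKM in db/db samples 1 to 4. In lean samples 1 to 4 they were 0.595, 0.509, 0.267 and 0.605 FPKM, from 9 to 23 estimated fragments each. The groups lay far apart, and db/db 1 was again the lowest db/db sample. Means were 79.8 ± 31.0 and 0.494 ± 0.158 FPKM, a ratio of 161.5 (95% counting interval 127.4 to 207.9; log2 fold change 5.66, SE 0.28), and 190.1 without db/db 1.

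Cyp2a12 itself, the bile acid hydroxylase, was at 698.0, 712.5, 703.0 and 655.0 FPKM in db/db samples 1 to 4. In lean samples 1 to 4 it was at 505.5, 489.4, 414.5 and 413.0. It was high in both groups and 1.52-fold higher in db/db, at 692.1 ± 25.4 against 455.6 ± 48.8 (log2 fold change 0.61, SE 0.11). Mean Cyp2a12 was 922.1 times mean Cyp2a22 in lean liver and 8.68 times in db/db liver. Cyp2a22 made up 0.0644 to 0.146% of the pair in lean samples and 5.08 to 13.7% in db/db samples. The sum of the pair was 771.9 ± 40.7 FPKM in db/db against 456.1 ± 48.9 in lean, and every db/db sample was higher.

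Cyp2a4, the testosterone hydroxylase, was at 15.6, 52.6, 69.6 and 45.7 FPKM in db/db samples 1 to 4. It was at 17.5, 9.36, 16.0 and 7.18 in lean samples 1 to 4. The groups overlapped only through db/db 1, which lay below lean samples 1 and 3, while the other 3 db/db samples were at least 45.7. Means were 45.9 ± 22.6 and 12.5 ± 5.02 FPKM, a ratio of 3.66 (log2 fold change 1.69, SE 0.41), and 4.47 without db/db 1.

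Cyp2a5, the coumarin hydroxylase, was the most abundant of the 7 genes in both groups, at 761.8, 961.0, 896.3 and 1099.9 FPKM in db/db samples 1 to 4. It was at 1631, 1394, 1416 and 719.0 in lean samples 1 to 4. Lean samples 1 to 3 were above every db/db sample and lean 4 was below every one. Mean FPKM was 1.39-fold higher in lean (929.7 ± 140.6 in db/db, 1290 ± 395.3 in lean; log2 fold change -0.42, SE 0.23).

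The size of that Cyp2a5 difference depended on the measure. A second deposited measure, headed counts and scaled between libraries by the authors, gave Cyp2a5 as 19868, 20158, 18615 and 23411 in db/db samples 1 to 4. It gave 26012, 23870, 22434 and 14992 in lean samples 1 to 4, so that the lean mean was 1.06-fold higher (20513 ± 2045 and 21827 ± 4788). The ratio of FPKM to 1000 units of that measure, which for a gene of fixed length should be nearly constant, ran from 38.3 to 48.2 for Cyp2a5 in db/db and from 48.0 to 63.1 in lean. Its highest value was 1.65 times its lowest. For Cyp2b10 that spread was 1.22, from lean 3 alone (39.8), and for the other 5 genes 1.01. Over 8418 genes with at least 50 units in every sample the median spread was 1.06, and it passed 1.5 for 11%. Cyp2a5 has 5 annotated transcripts, Cyp2b10 3, Cyp2a12 and Cyp2a22 2 each, and the remaining genes 1. The sources used here do not give the transcript length behind each FPKM, so its part in this was not tested.

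**Figure D2:**
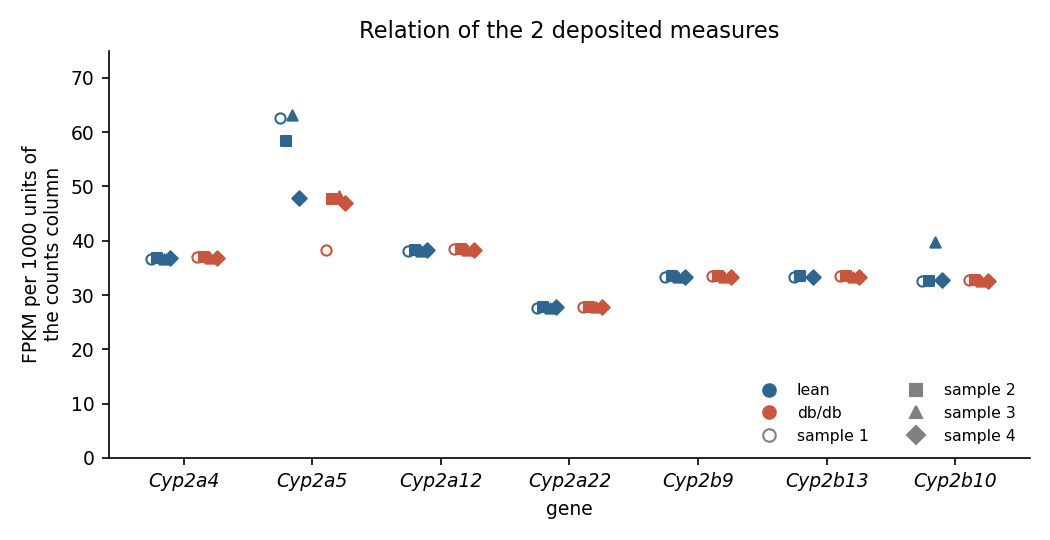
FPKM per 1000 units of the deposited counts measure, for each gene and sample (lean blue, db/db red). Cyp2a5 runs from 38.3 to 63.1 and tends to be higher in lean samples, whereas the other genes form level rows, apart from Cyp2b10 in lean 3 at 39.8.

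Cyp2a5 made up most of its pair in every sample. Cyp2a4 and Cyp2a5 together came to 975.6 ± 152.5 FPKM in db/db against 1302 ± 399.4 in lean, with overlapping groups. By the counts measure the sums were 21757 ± 2010 and 22168 ± 4889. Cyp2a4 made up 0.667 to 1.12% of the summed FPKM in lean samples and 2.0 to 7.2% in db/db samples. By FPKM, whose relation to the counts measure shifted for Cyp2a5, mean Cyp2a5 was 20.3 times mean Cyp2a4 in db/db and 103.1 times in lean.

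The make-up of the whole group differed more than its total. The 7 genes summed to 2179 ± 318.2 FPKM in db/db against 1761 ± 435.2 in lean, with overlap between the groups. By the counts measure, every db/db sample was higher (55584 ± 6891 against 34174 ± 5964). Cyp2a5 took 63.0 to 76.6% of summed FPKM in lean samples and 38.3 to 45.0% in db/db samples. Cyp2b genes took 0.0820 to 0.193% in lean samples and 12.3 to 23.9% in db/db samples. Cyp2a12 took 22.4 to 36.2% in lean samples and 26.8 to 40.5% in db/db samples. Cyp2a5 is part of each total, and its FPKM shifted against the counts measure, so these shares are given for FPKM only.

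**Figure D3:**
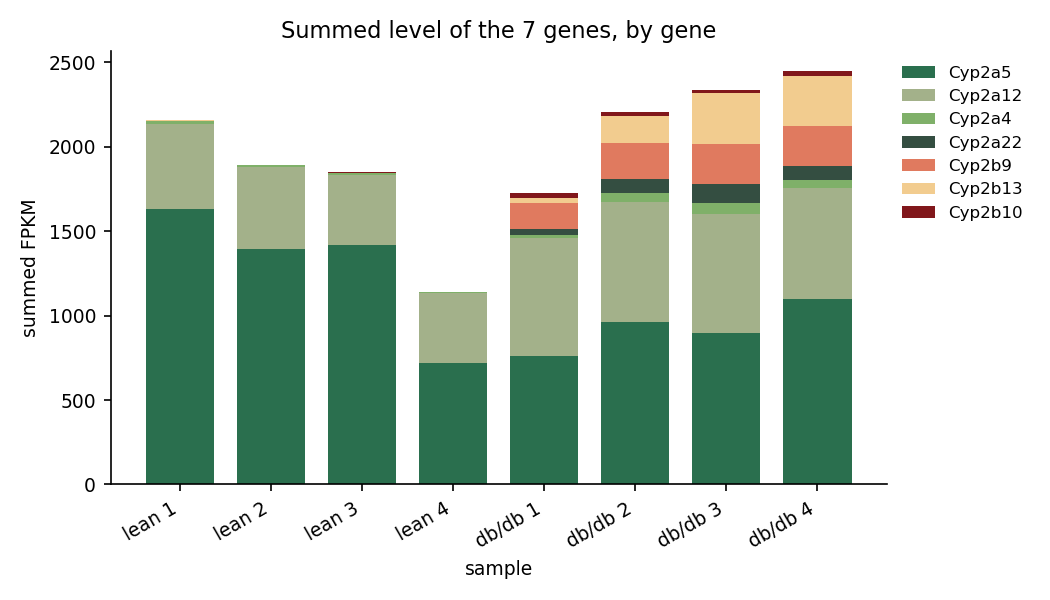
Summed FPKM of the 7 genes in each sample, stacked by gene. Lean bars consist almost wholly of Cyp2a5 and Cyp2a12, and db/db bars also hold Cyp2b9, Cyp2b13, Cyp2a22 and Cyp2a4; the bar of lean 4 is the lowest.

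In db/db liver the order by mean FPKM was Cyp2a5, Cyp2a12, Cyp2b9, Cyp2b13, Cyp2a22, Cyp2a4, Cyp2b10. The ranges over samples of Cyp2a5, Cyp2a12 and Cyp2b9 did not meet, and each later gene overlapped the next in the order. In lean liver it was Cyp2a5, Cyp2a12, Cyp2a4, Cyp2b10, Cyp2a22, Cyp2b9, Cyp2b13. There the first 4 had ranges apart from each other, and from Cyp2b10 on neighbours overlapped.

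The genes also differed in their spread among the db/db samples. Coefficients of variation were 3.68% for Cyp2a12, 7.32% for Cyp2b10, 15.1% for Cyp2a5, 19.3% for Cyp2b9, 38.8% for Cyp2a22, 49.2% for Cyp2a4 and 64.5% for Cyp2b13. Much of this was db/db 1. The mean of the other 3 db/db samples was 7.29 times db/db 1 for Cyp2b13, 3.59 times for Cyp2a4, 2.52 times for Cyp2a22 and 1.51 times for Cyp2b9. It was 1.29 times for Cyp2a5, 0.989 times for Cyp2a12 and 0.909 times for Cyp2b10. The gap was thus at least 1.5-fold in 4 genes and was absent or slightly opposite in Cyp2a12 and Cyp2b10. Among the lean samples, lean 1 had the highest value of Cyp2b9, Cyp2b13, Cyp2b10, Cyp2a4, Cyp2a5 and Cyp2a12.

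**Figure D4:**
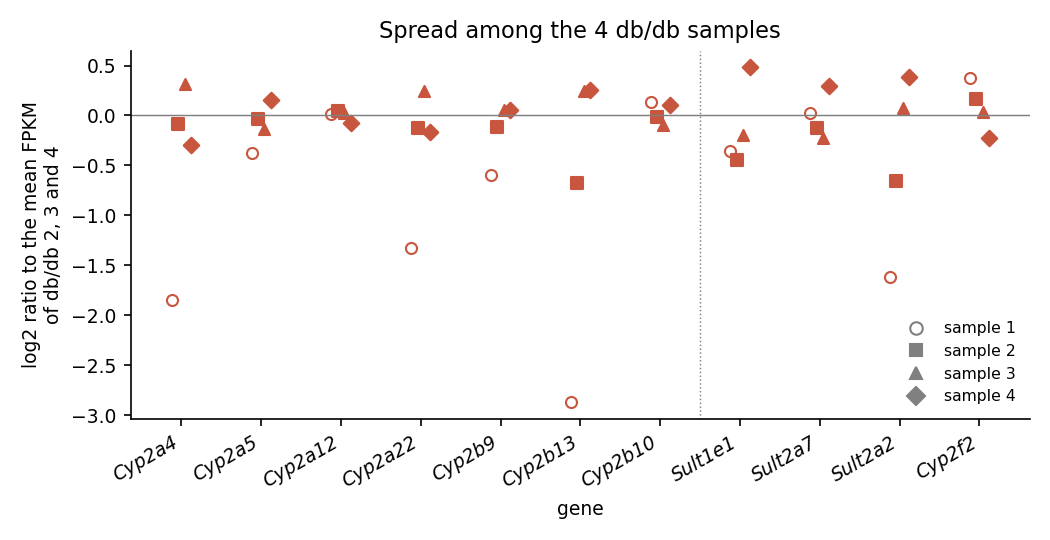
Each db/db sample as the log2 ratio of its FPKM to the mean of db/db samples 2, 3 and 4, for the 7 genes and, right of the dotted line, 4 genes of the lists named in the text. Db/db 1 (open circles) lies far below 0 for Cyp2b13, Cyp2a4, Cyp2a22 and Sult2a2 and near or above 0 for Cyp2a12, Cyp2b10, Sult2a7 and Cyp2f2.

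The search for the most similar profiles over the 8 samples left out the 7 genes themselves. It used root mean square distance of log2(FPKM + 1), after removing each gene's mean. Nearest to Cyp2b9 were the sulfotransferase genes Sult1e1 (distance 0.30) and Sult2a7 (0.31), and nearest to Cyp2b13 were Sult2a2 (0.44) and Sult1e1 (0.79). Cyp2b10 was nearest to Gm10020 (0.22) and to another cytochrome gene, Cyp2c39 (0.32; 14.4 ± 3.21 against 0.673 ± 0.644 FPKM). Cyp2a22 was nearest to Gm10260 (0.37) and Ly6d (0.42), and Cyp2a4 to the transporter gene Slc22a27 (0.37) and the antimicrobial peptide gene Leap2 (0.38). For Cyp2a12 the nearest were Hoga1 (0.061) and Akr1e1 (0.064), and for Cyp2a5 Dhps (0.14) and Klc1 (0.14). Within the group, Cyp2b9 and Cyp2b13 were 0.73 apart, Cyp2a22 was 0.85 from Cyp2b13 and 0.90 from Cyp2b9, and Cyp2b10 was 2.06 from Cyp2b9. Distances grow with the size of the group difference, so those of different genes are not on a common footing.

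Other Cyp2 genes of chromosome 7 gave 1 call, where 26.4% of all tested genes were called. Of 6 listed, Cyp2b19, Cyp2b23 and Cyp2t4 were at 0 in all samples, Cyp2s1 was at most 0.124 FPKM, and 2 could be tested. Cyp2f2, abundant in liver and lung, was at 730.8 ± 125.7 FPKM in db/db against 623.8 ± 29.9 in lean (adjusted p = 0.262 by limma, with a log2 fold change of 0.21). Cyp2g1, best known from olfactory mucosa, was at 2.36 ± 0.912 and 1.14 ± 0.399 FPKM. It was called higher (adjusted p = 0.0375 by limma, with a log2 fold change of 0.63), but the call was lost in 8 of 18 alternatives, among them leaving out db/db 1, 2 or 4 or lean 2, 3 or 4 (adjusted p = 0.0581 to 0.0917 by limma).

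The nuclear receptors that drive Cyp2b10 were not among the called genes. CAR (Nr1i3) was at 83.2, 126.0, 146.3 and 116.1 FPKM in db/db samples and at 116.7, 152.3, 169.0 and 90.2 in lean samples (adjusted p = 0.643 by limma, with a log2 fold change of -0.15). The pregnane X receptor PXR (Nr1i2) was at 36.4 ± 2.15 and 33.0 ± 5.33 FPKM (adjusted p = 0.389 by limma, with a log2 fold change of 0.15). The Nr1i3 locus is shared with 1 other row, and mRNA levels do not measure receptor activity. Among 20 receptors and transcription factors of these genes, 2 were higher and 2 lower, with a median log2 fold change of -0.08. Over all tested genes limma called 26.4%, 15.5% higher and 10.9% lower.

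The 4 called factors included known regulators of Cyp2a genes. Nfe2l2, which encodes the stress-responsive factor NRF2, rose from 29.4 ± 5.98 to 62.7 ± 14.4 FPKM (adjusted p = 0.00287 by limma, with a log2 fold change of 1.06). Ppargc1a, a coactivator of fasting metabolism, was at 1.99 ± 0.486 against 0.458 ± 0.312. It passed the filter only through db/db, which limits its call, and the call was lost with the counts measure (adjusted p = 0.0557 by limma). Dbp, a clock-controlled activator of Cyp2a4 and Cyp2a5, fell from 121.7 ± 43.0 to 46.5 ± 7.69 FPKM (adjusted p = 0.00249 by limma, with a log2 fold change of -1.31), at a locus shared with 2 other rows. Cebpa, which encodes the liver factor C/EBP alpha, fell from 118.8 ± 10.6 to 87.5 ± 5.90 (adjusted p = 0.00951 by limma, with a log2 fold change of -0.43). Without db/db 1 the list had 6 called genes.

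The promoter windows from -250 to -51 were searched on both strands for 7 motifs. The bZIP core TTANNNAA, which factors of the Dbp and C/EBP families can bind, occurred once each in Cyp2a4, Cyp2a5, Cyp2b9, Cyp2b10 and Cyp2b13, from -71 to -58, and not in Cyp2a12 or Cyp2a22. It lies in the stretches gttgcataatc and gttgtataac near the 3' end of the sequences above, and 28.48% of 27025 promoters hold it in the same window. The other 6 had no match in any of the 7 genes. They were TTATGTAA (a special case of TTANNNAA; 0.7% of promoters), the STAT palindrome TTCNNNGAA (5.89%), the nuclear receptor direct repeat DR1 (0.03%), the forkhead motif TGTTTAC (2.51%), the full HNF1 palindrome (0.0%) and ATTGAT, bound by HNF6 and CUX2 (6.05%). These are matches of letters in a short window and say nothing of sites elsewhere.

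Other genes activated by CAR and PXR were called higher in part. Of 22 listed, 21 were tested, 9 were higher and 1 lower, with a median log2 fold change of 0.52. The shares over all tested genes were 15.5% higher and 10.9% lower. Aldh1a1, a retinal dehydrogenase gene, was at 1844 ± 250.1 FPKM in db/db against 591.1 ± 36.5 in lean (adjusted p = 8.87e-06 by limma, with a log2 fold change of 1.63). Its relative Aldh1a7 rose from 115.5 ± 14.9 to 307.7 ± 24.9 (adjusted p = 1.49e-05 by limma). The export pump gene Abcc4 was at 2.78 ± 0.996 FPKM in db/db samples but 0.382 ± 0.126 in lean ones, and is given without a p because it passed the filter on low values only through db/db. Cyp3a11, a classic PXR target with the highest mean over all 8 samples, was at 1727 ± 289.4 and 1938 ± 311.4 (adjusted p = 0.470 by limma, with a log2 fold change of -0.17). The gene that was lower was the carboxylesterase gene Ces2a, named after its values were seen (102.5 ± 25.5 against 206.0 ± 14.6 FPKM, adjusted p = 0.000891 by limma).

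Of 15 genes for electron partners and haem synthesis, 14 were tested, 3 were higher and 0 lower, with a median log2 fold change of 0.12. Since 15.5% of all tested genes were higher and 10.9% lower, nothing is read from this count. Cpox, a haem synthesis enzyme, was at 41.1 ± 3.56 against 23.1 ± 5.08 FPKM (adjusted p = 0.00343 by limma). Cyb5r3, the cytochrome b5 reductase, was at 198.8 ± 25.3 against 141.7 ± 9.84 (adjusted p = 0.0109 by limma), and the haem-binding partner Pgrmc1 at 908.6 ± 93.1 against 659.1 ± 61.5 (adjusted p = 0.0147 by limma). Por, named after its values were seen, was at 165.1 ± 31.5 and 155.8 ± 28.1 FPKM (adjusted p = 0.749 by limma, with a log2 fold change of 0.08).

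Because Cyp2b9, Cyp2b13 and Cyp2a4 are female-biased genes measured here in males, other sex-biased liver genes were listed beside them. The lists were chosen with earlier results of these data known. Of 19 female-biased genes 15 were tested. In db/db 14 were higher and 0 lower (median log2 fold change 3.22), against 15.5% and 10.9% of all tested genes. Of the 15 tested, 7 did not reach 0.5 FPKM in every lean sample and so passed the filter only through db/db. The count and the median are therefore a description. Sult2a1, named after its values were seen, was listed at 0 in all 4 lean samples, so its fitted value is no bound. Sult1e1, the oestrogen sulfotransferase gene, was at 123.2 to 234.3 FPKM in db/db and no more than 0.436 in lean samples. Like Sult2a2, it entered the test only through its db/db levels, so no p is given for either. Sult2a7 was at 275.1 ± 45.0 and 1.21 ± 0.536 FPKM (adjusted p = 2.09e-09 by limma). Sult2a2 was at 65.9, 128.7, 214.0 and 265.3 in db/db samples 1 to 4 and 0 to 0.113 in lean samples, and was lowest in db/db 1, as was Cyp2b13.

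Of 18 male-biased genes 17 were tested, 13 were lower and 1 higher (median log2 fold change -2.85). Shares of all tested genes were 10.9% lower and 15.5% higher. Serpina1e was at 92.6 ± 63.4 FPKM in db/db against 8991 ± 1413 in lean (adjusted p = 8.29e-07 by limma), and Selenbp2 at 39.3 ± 19.1 and 968.0 ± 193.3 (adjusted p = 1.35e-06 by limma). The steroid dehydrogenase gene Hsd3b5, at a locus shared with 6 other rows, was at 6.06, 0.0389, 0.570 and 1.04 FPKM in db/db samples 1 to 4 and 198.0 ± 31.8 in lean. It is 1 of 2 genes of this list that did not reach 0.5 FPKM in every db/db sample and passed the filter through lean, so no p is given. The urinary protein gene Mup3 was at 6592, 3130, 1886 and 2007 in db/db samples and 15103 ± 701.2 in lean (adjusted p = 0.000609 by limma). Db/db 1 thus had the highest level of both among the db/db samples. Serpina1e, Mup3 and the Sult2a genes belong to families of near-identical copies, so their levels are uncertain.

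Among 13 regulators of sex-biased liver genes, 12 were tested, 4 higher and 2 lower, with a median log2 fold change of 0.19. Of all tested genes 15.5% were higher and 10.9% lower. The prolactin receptor gene Prlr rose from 15.7 ± 3.85 to 47.4 ± 2.84 FPKM (adjusted p = 5e-05 by limma, with a log2 fold change of 1.56), at a locus shared with 2 other rows and listed also among the female-biased genes. Trim24, which encodes a nuclear receptor cofactor, was at 12.9 ± 1.65 against 8.46 ± 1.60 FPKM (adjusted p = 0.0157 by limma). The growth hormone receptor gene Ghr was at 195.5 ± 32.2 and 231.8 ± 24.1 (adjusted p = 0.191 by limma, with a log2 fold change of -0.25). The 6 calls of this list became 3 without db/db 4 or without lean 2.

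**Figure D5:**
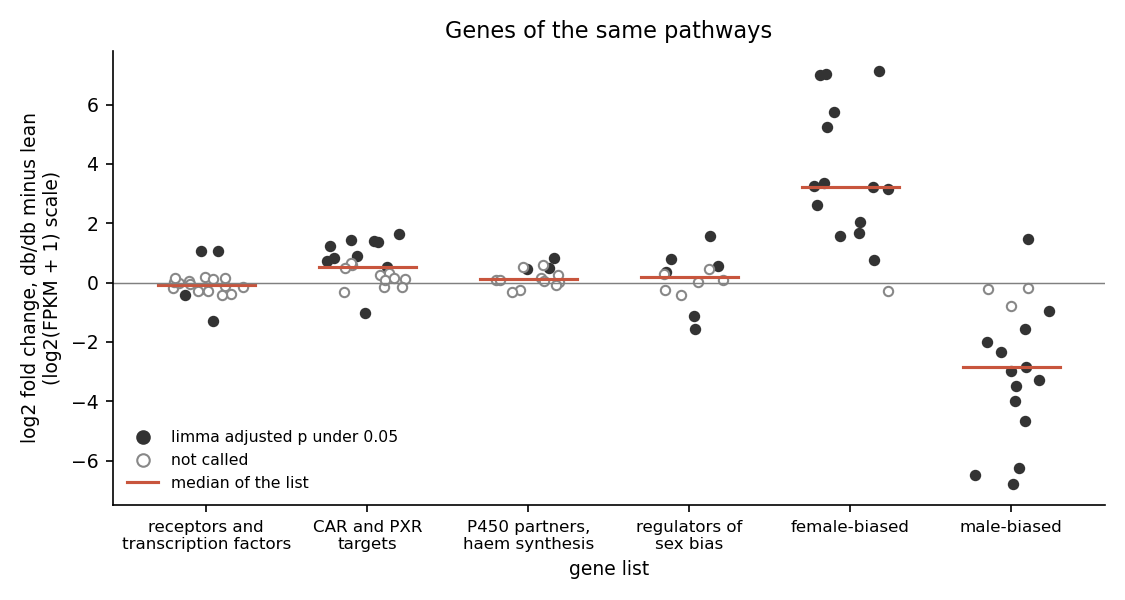
Log2 fold change (db/db minus lean, log2(FPKM + 1) scale) of each tested gene of 6 lists; filled points passed limma at an adjusted p under 0.05, and the red line is the list's median. The medians are 3.22 for female-biased and -2.85 for male-biased genes and lie between -0.08 and 0.52 for the other 4 lists.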

How the data were processed

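Liver RNA of 8 male samples was analysed, grouped and numbered by title. The submitters' processing notes name HISAT2 2.0.4, cutadapt 1.9.3, Cuffdiff, Cufflinks and the mouse build mm10, without roles. The authors deposited FPKM, named so per the file headers, for 22564 protein-coding rows. A second measure headed counts was a deposited, normalized signal: estimated fragments divided by a size factor per library. A step per library (0.850 to 1.14) divided 91.4 to 92.0% of the values below 2000 steps into whole numbers, within 0.05. The step gave the estimated fragments. The main test did not use them, and voom was run on them, rounded, only as an alternative.

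Rows of 1 symbol were summed (162 rows of 79 symbols), giving 22481 genes. Genes with FPKM of at least 0.5 in at least 4 samples (10943) were tested on log2(FPKM + 1) with limma 3.58.1 in R 4.3.3 (mean trend, 2-sided, Benjamini-Hochberg over all tested genes, threshold 0.05). The fit was tested on simulated data first. It recovered 20.9% of simulated log2 changes of 0.5, 74.6% of changes of 1 and 100% of changes of 2. A gene not called is thus not shown to be unchanged. Folds are ratios of mean FPKM, and log2 fold changes understate the change of low genes. The 7 genes and the gene lists were chosen with earlier results of these data known. Genes named from a list are those called with the smallest adjusted p, 3 per list, and the most abundant. For the transcription factors all called genes and both drug receptors are named. So are all other Cyp2 genes of the cluster, and for each of the 7 genes the 2 nearest profiles outside the 7. A gene that this rule would name is not reported here and stays in the counts of its list. Counting intervals are exact Poisson at 95% and cover counting error only. The alternatives were other pseudocounts, filters, scalings and measures, voom, the replicate number as a block, and leaving out each sample. Sequences came from RefSeq (GRCm38.p6, all 7 promoters matched) and GENCODE M21, and no protein sequence was used here.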

Additional observations from a re-analysis of the deposited data

Results flagged for a closer look

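Values far from the other samples of their group, relative to the range of the group, were found in 3 of 74 groups of 4 samples checked (37 genes). Chance gives about 1 in 20. Cyp2b9 in lean 1 was 0.965 FPKM, against 0.0357 to 0.182 in the other lean samples. Lean 1 also had the highest lean level of Cyp2b13 and Cyp2b10. Hsd3b5 in db/db 1 was 6.06 FPKM, where the other db/db samples had 0.0389 to 1.04. Nr1i2 in lean 3 was 40.9 FPKM, against 29.6 to 31.1 in the other lean samples.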

How the results depend on the processing

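The 7 genes kept the direction of their difference in all 18 alternatives run. The median log2 fold change of the 7 was 3.29, and 3.94 with a pseudocount of 0.1, 4.08 with the counts measure and 4.11 with voom on estimated fragments. Without 1 sample at a time it ran from 3.06 to 3.45. The single genes that moved by more than their spread were Cyp2a22 (5.47 to 7.28 over all alternatives), Cyp2b9 (7.25 to 10.03), Cyp2b10 (3.06 to 4.11) and Cyp2b13 (6.64 to 10.38), for which a pseudocount weighs on the low lean values. Cyp2a5 ran from -0.68 to -0.03. The 2892 genes called became 2271 to 2650 without 1 sample. Regulators of sex-biased genes had 6 calls, and 3 to 5 without 1 sample. The other lists stayed within 1.5 times their count. Among the list genes named by the rule, which were recomputed under each alternative, Cyp2g1 (8 alternatives) and Ppargc1a (1) lost a call, and none of those called reversed. Genes named after their values were seen were not recomputed. Deviations from the group mean in same-numbered samples had correlations of -0.22, 0.03, 0.11 and -0.01. Samples of different number were not compared, so this cannot exclude a pairing. The numbers are used as names only. With the replicate number as a block, 2514 genes were called and Cyp2g1 was not (adjusted p = 0.0594). Lean levels of Cyp2b9 and Cyp2b13 rest on 40 and 27 fragments, 31 and 21 of them in lean 1, which limits their ratios.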
